A study of Lactuca sativa with 24 samples.

Results

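Leaves of the lettuce (Lactuca sativa) variety Falstaff that had received UVB for 2.5 h per day were compared with Falstaff leaves of the same day kept under visible light alone. The libraries were chosen by their sample labels, which gave 3 UVB libraries and 3 visible light libraries, 6 of the 24 libraries of the series. Both groups were wild type and were sampled at day 6. The UVB group had 0.4 W per square metre of UVB in addition to visible light, from a lamp whose UVB LED emits at 306 nm and whose irradiance was measured at 50 cm. Day 0 and UVA (7.5 h per day) leaves of Falstaff, and the UVB 2.5 h and visible light groups of the variety Luna bionda, also wild type, served only to show levels elsewhere. RNA came from 100 mg of leaf, was amplified as cDNA and was sequenced in paired ends. Separate plants are not stated in the labels for libraries of the same group. The p-values therefore rest on library-to-library spread, part of which may be technical.

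In plants, UVB is perceived by the photoreceptor UVR8, which acts with the ubiquitin ligase COP1 to stabilise the transcription factor HY5. HY5 switches on genes of flavonoid synthesis, such as chalcone synthase, and of DNA repair by photolyases. In lettuce leaves this pathway is known for the accumulation of flavonoids and, in red varieties, anthocyanins. The nuclear genes of the deposited tables carry locus identifiers only, so the members of this pathway could not be picked out, and no role is given below to any LOC identifier.

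By the labels, these 6 libraries are UVB for 2.5 h and visible light at day 6. The authors' deposited table that holds the same 6 libraries has other names for both groups, a second UVB group and time 0. Which naming is right was not settled, and the groups below follow the labels. The sets of 3 libraries are the same under both. The libraries labelled day 0 and UVA in Falstaff likewise lie in tables named for other groups, a first UVB group and visible light at day 6, so that their levels below hold for the labels only. Whether single libraries, such as the shallow ones described next, carry the right label was not settled either, and every difference over 6 libraries rests on those labels.

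The libraries were of very unequal depth (the plot of depth and composition). UVB replicates 1, 2 and 3 held 1013802, 18679356 and 27225611 reads in genes, and visible light replicates 1, 2 and 3 held 31581946, 829798 and 37215851. UVB replicate 1 and visible light replicate 2 are called shallow here and the other 4 deep. The same split follows the start of the number in the batch label, and within these 6 libraries depth and this number cannot be told apart. Elsewhere in the series, libraries with the same start were of both kinds. The 4 deep ones, all Luna bionda, had 0.00192% to 0.0078% of reads in plastid genes, and the shallow ones had 4.47% to 11.6%. No library of the series without this start was shallow. The numbers of the deep UVB libraries also stand apart from those of the deep visible light libraries. A single read was worth 0.986 CPM (each library's reads brought to a common total) in UVB replicate 1 and 1.21 CPM in visible light replicate 2, and at most 0.0535 CPM in the deep libraries. Reads were found for 19086, 25194 and 26044 genes in UVB replicates 1, 2 and 3, and for 25359, 18281 and 25789 genes in visible light replicates 1, 2 and 3.

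**Figure D1:**
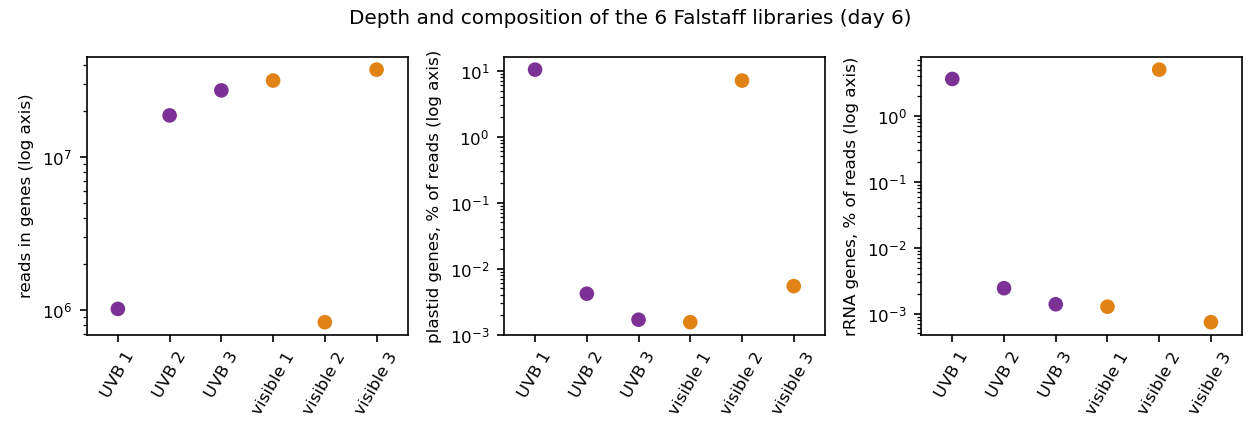
Reads in genes (left), plastid genes (middle) and ribosomal RNA genes (right) as a percent of reads, each on a log axis, for the 3 UVB and 3 visible light libraries of Falstaff; each point is 1 library. UVB 1 and visible 2 have the fewest reads and the highest shares of plastid and ribosomal RNA.

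The shallow library of each group had another make-up than the deep ones. Plastid genes took 10.4%, 0.00417% and 0.00168% of reads in UVB replicates 1, 2 and 3, and 0.00154%, 7.08% and 0.00542% in visible light replicates 1, 2 and 3. Nuclear protein-coding genes took 58.5%, 96.9% and 96.8% with UVB and 97.3%, 49.9% and 95.6% under visible light. Long noncoding RNA genes took 15.1%, 3.07% and 3.09% with UVB and 2.61%, 19.2% and 4.28% under visible light. In each measure the odd library is the shallow one of its group, and the groups overlap.

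No gene passed the test between UVB and visible light over the 6 libraries. With limma on log2(CPM + 1), 0 of 20803 genes were called at an adjusted p of 0.05, which is 0.0% of those tested. Before adjustment, p lay under 0.05 for 97 genes (0.466%), against 1040 by chance, and 74 of them were higher and 23 lower with UVB. This number rested on single libraries and on the model: it was 630 (3.05%) without UVB replicate 1, 688 with a term for depth, and 1980 (9.52%) with limma sample weights, and 0 genes were called each time. The edgeR quasi-likelihood test also called 0 genes, with 215 under the unadjusted threshold (1.03%). DESeq2 called 1 gene, LOC111921236, which is 0.00481% of those tested, and 384 genes (1.85%) were under the unadjusted threshold. The median standard error of a log2 difference with limma was 0.67, and differences of at least 2-fold were frequent, with 1250 genes higher and 463 lower. In 861 genes (4.14%) every UVB library was above every visible light library, and in 210 (1.01%) every UVB library was below, together 5.15% of those tested. Size factors by the median of ratios gave 647 and 601 such genes in place of 861 and 210, and a median difference over all genes of 0.02 in place of 0.14. The split between higher and lower genes therefore depended on the scaling, and the differences in CPM below stand beside a median of 0.14 over all genes.

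Among protein-coding genes whose 6 libraries did not overlap, LOC111877039 had the highest difference. It had 764, 315 and 239 CPM in UVB replicates 1, 2 and 3, and 11.3, 31.3 and 226 CPM in visible light replicates 1, 2 and 3. Visible light replicate 3 lay just below the lowest UVB library, so the difference rests on visible light replicates 1 and 2. The log2 difference was 3.11 (SE 1.03, limma adjusted p = 0.9999), and 2.18 to 4.28 when single libraries were left out. At day 0 its level was 314, 363 and 374 CPM, within the range of the UVB libraries, and in the deep UVA library it was 742 CPM. UVA replicates 1 and 3 are shallow, and their 4.31 and 4.25 CPM lie below what 3 reads are worth there (6.46 and 6.37 CPM). Next came LOC111921522, with 22.7, 18.9 and 14.6 CPM with UVB and 8.52, 0 and 13.0 CPM under visible light. The 0 is from the shallow visible light library, whose depth allows up to 3.62 CPM (3 reads). Its log2 difference was 1.93 (SE 0.95, limma adjusted p = 0.9999) over 6 libraries, 0.76 without visible light replicate 2, and 0.61 (SE 0.34, limma adjusted p = 0.565) over the deep ones.

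In the other direction, LOC111914174 had 3.95, 4.71 and 10.2 CPM with UVB and 232, 12.1 and 23.0 CPM under visible light. The UVB libraries and the lowest visible light library lay close together, and visible light replicate 1 stood far above all. The log2 difference was -2.62 (SE 1.01, limma adjusted p = 0.9999), and -1.38 without visible light replicate 1 and -3.46 without visible light replicate 2. Over the deep libraries DESeq2 gave LOC111914174 an adjusted p of 0.00095. LOC111877678 had 110, 351 and 186 CPM with UVB and 2032, 854 and 502 CPM under visible light. All 3 visible light libraries were above the UVB libraries, as the choice of genes without overlap required. The log2 difference was -2.30 (SE 0.75, limma adjusted p = 0.9999), and it lay between -2.76 and -1.75 when single libraries were left out. Over the deep libraries DESeq2 gave LOC111877678 an adjusted p of 0.0446. Day 0 leaves had 564, 465 and 509 CPM of this gene, between the UVB libraries and visible light replicates 1 and 2, and the UVA libraries 12.9, 595 and 2529 CPM, the first and last of them shallow.

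**Figure D2:**
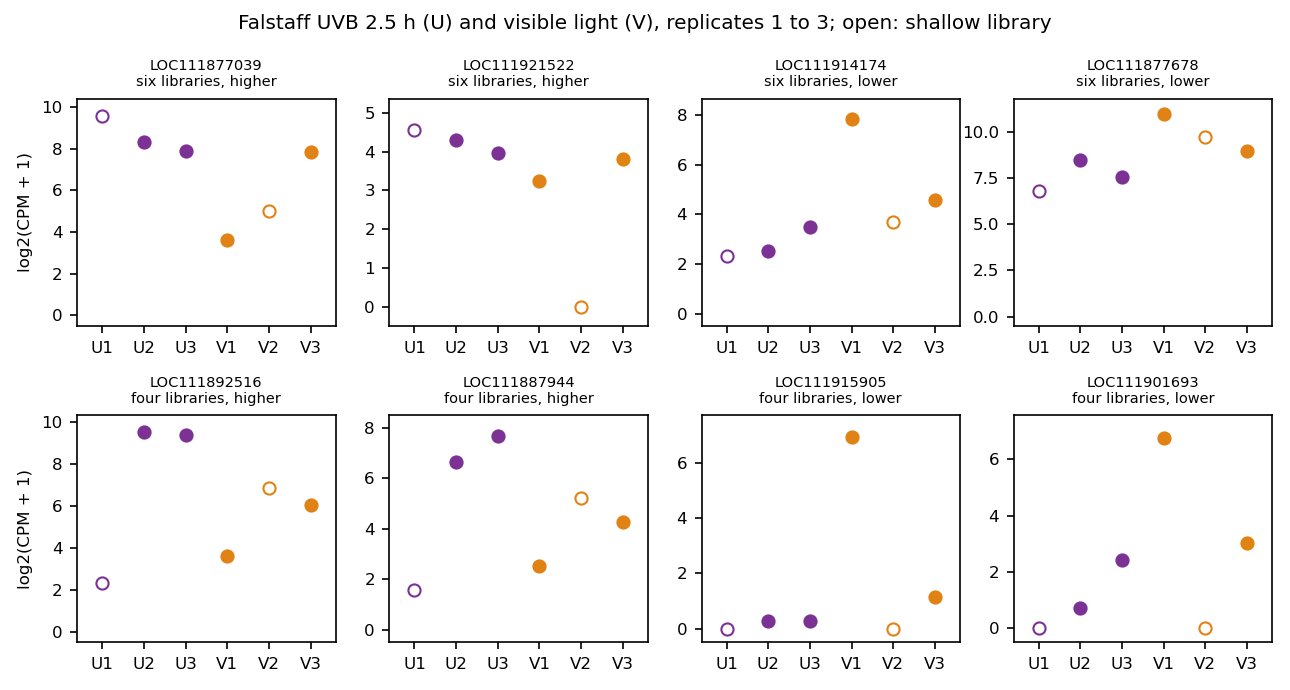
Levels as log2(CPM + 1) of 8 genes in UVB (U, purple) and visible light (V, orange) replicates 1 to 3; open circles are the shallow libraries. In the upper row the groups do not overlap in 6 libraries; in the lower row the genes separate the deep libraries, and for LOC111892516 and LOC111887944 the shallow UVB library lies at the bottom.

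Without the shallow library of each group, 2 deep UVB libraries stood against 2 deep visible light libraries, and limma and edgeR again called no gene, whereas DESeq2 called 269. With limma 0 of 20292 genes passed (0.0%), with 0.442 as the lowest adjusted p. Before adjustment 2097 genes (10.3%) lay under 0.05, against 1015 by chance. Of the 2097 genes, 1604 were higher and 493 lower with UVB, but with median-of-ratios size factors the split was 1010 and 946. The median difference over all genes was 0.12 in CPM and -0.03 with size factors. The edgeR test called 0 genes, with 1929 under the unadjusted threshold (9.51%). DESeq2 called 269 genes (1.33%), of which 142 were higher (0.7%) and 127 lower (0.626%) with UVB. The median standard error with limma was 0.36.

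The limma count of 0 in the deep libraries changed with the visible light libraries. Without visible light replicate 1, limma called 713 genes (500 higher and 213 lower), and without visible light replicate 3 it called 2979 (1771 higher and 1208 lower). Without UVB replicate 2 or replicate 3 it called 0. A group left with 1 library is assumed in these fits to vary like the other group, and the UVB libraries were the closest pair. The standard deviation across 11841 genes of the log2 ratio was 0.433 between UVB replicates 2 and 3, and 0.952 between visible light replicates 1 and 3. Between groups it was 0.674 and 0.660 for UVB replicates 2 and 3 against visible light replicate 3, and 0.909 and 0.962 against visible light replicate 1. The visible light libraries thus differed from each other about as much as visible light replicate 1 differed from the UVB libraries. UVB replicates 2 and 3 were nearly as close to day 0 replicate 2 (0.438 and 0.458) as to each other.

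**Figure D3:**
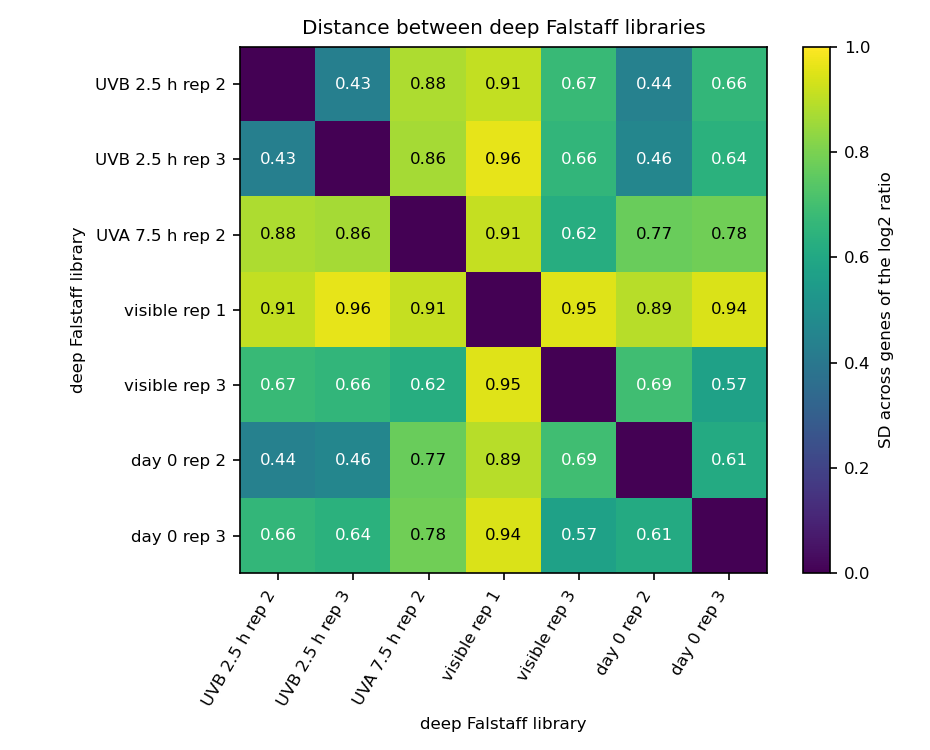
Standard deviation across genes of the log2 ratio between each pair of the 7 deep Falstaff libraries; a low value (dark) means similar libraries. The UVB pair is at 0.433, and the row of visible light replicate 1 runs from 0.891 to 0.962 against every other library.

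Among protein-coding genes with a mean of at least 10 CPM and no overlap in the deep libraries, LOC111892516 had the highest log2 difference. Its level was 725 and 661 CPM in UVB replicates 2 and 3, and 11.1 and 64.8 CPM in visible light replicates 1 and 3. The shallow UVB library had 3.95 CPM and the shallow visible light library 116 CPM. The order of the groups is thus opposite in the shallow libraries. Over the deep libraries the log2 difference was 4.62 (SE 0.78, limma adjusted p = 0.442), and UVB replicate 1 minus visible light replicate 2 was -4.56. DESeq2 on the deep libraries gave an adjusted p of 0.00012 for LOC111892516, and over all the alternatives tried the adjusted p was between 0.00012 and 1. At day 0 the gene had 5.79, 110 and 150 CPM.

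LOC111887944 had the same order of groups, opposite in deep and shallow libraries. It had 98.9 and 207 CPM in the deep UVB libraries and 4.81 and 18.2 CPM in the deep visible light libraries, a log2 difference of 3.77 (SE 0.66, limma adjusted p = 0.442). In the shallow libraries it had 1.97 CPM with UVB and 36.2 CPM under visible light. The 1.97 CPM is 2 reads, below what 3 reads are worth there (2.96 CPM). The day 0 libraries had 1.93, 20.6 and 35.7 CPM, near the visible light levels. The first of them is shallow, and its value lies below 3 reads (2.89 CPM). DESeq2 on the deep libraries gave LOC111887944 an adjusted p of 0.00039.

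The genes with the lowest deep differences were high in a single library. LOC111915905 had 0.214 and 0.22 CPM in the deep UVB libraries and 121 and 1.24 CPM in visible light replicates 1 and 3 (log2 difference -3.76, SE 1.75, limma adjusted p = 0.51). LOC111901693 had 0.642 and 4.33 CPM with UVB and 108 and 7.17 CPM under visible light (-3.33, SE 1.26, limma adjusted p = 0.466). Neither gene had a read in the shallow libraries, which allows up to 2.96 CPM in UVB replicate 1 and 3.62 CPM in visible light replicate 2. In both genes visible light replicate 1 stood far above every other library of the comparison. Without it the log2 difference of LOC111901693 was -1.47, and LOC111915905 fell under the filter. DESeq2 on the 4 deep libraries gave an adjusted p of 0.0164 for LOC111915905 and 0.00479 for LOC111901693.

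A gap of at least 2-fold, in log2(CPM + 1), between the lowest library of one group and the highest of the other separated the deep libraries in 251 of 11863 genes (2.12%) with a mean of at least 10 CPM. Of these, 212 (1.79%) were higher and 39 (0.329%) lower with UVB. With size factors the counts were 128 and 84, so that the share of higher genes was 60.4% in place of 84.5%. All 212 higher genes were protein-coding, whereas 32 of the 39 lower genes were protein-coding and 7 (17.9%) long noncoding RNAs, a class that made up 4.39% of the genes considered. In the gene order of the RefSeq assembly Lsat_Salinas_v11, with only the 11863 genes considered kept, 16 of the 251 genes followed each other. They formed 8 pairs, all higher with UVB, the direction of 212 of the 251. Genes under the 10 CPM limit may lie between them, and the number of pairs by position alone was not worked out. The pair with the largest mean difference, LOC111908248 and LOC111908250, was chosen after its values were seen.

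LOC111908248 had 435 and 515 CPM in the deep UVB libraries and 79.0 and 52.7 CPM in the deep visible light libraries. LOC111908250 had 263 and 226 CPM with UVB and 38.4 and 8.11 CPM under visible light. In the shallow libraries the first had 5.92 CPM with UVB and 119 CPM under visible light, and the second 0 CPM and 62.7 CPM. Both genes again had opposite orders in deep and shallow libraries. Whether reads were counted by strand, or shared between similar genes, is not given in the sources used here, so neighbouring genes may not be independent.

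The shallow libraries, which had no part in choosing these 251 genes, mostly showed the opposite direction. Of the 212 genes higher in both deep UVB libraries, 14 (6.60%) were also higher in UVB replicate 1 than in visible light replicate 2, counted relative to the median of all genes considered (0.14). Their median difference was -1.64 in the shallow pair and 1.62 in the deep libraries. Of the 39 lower genes, 7 (17.9%) were lower in the shallow pair too, with a median of 1.82 there and -1.60 in the deep libraries. The 142 and 127 genes that DESeq2 called higher and lower in the deep libraries had the same direction in 9 (6.34%) and 33 (26.0%). A gene with no read in either shallow library always counted as lower here, since its difference of 0 lies under that median. This holds for LOC111915905 and LOC111901693, which DESeq2 called lower, and the number of such genes was not worked out. With at least 20 reads over the shallow pair, the shares in the 2-fold sets were 4.96% of 141 higher and 17.6% of 34 lower genes. With a single shallow library per group the shallow difference has no replicate check and no test.

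**Figure D4:**
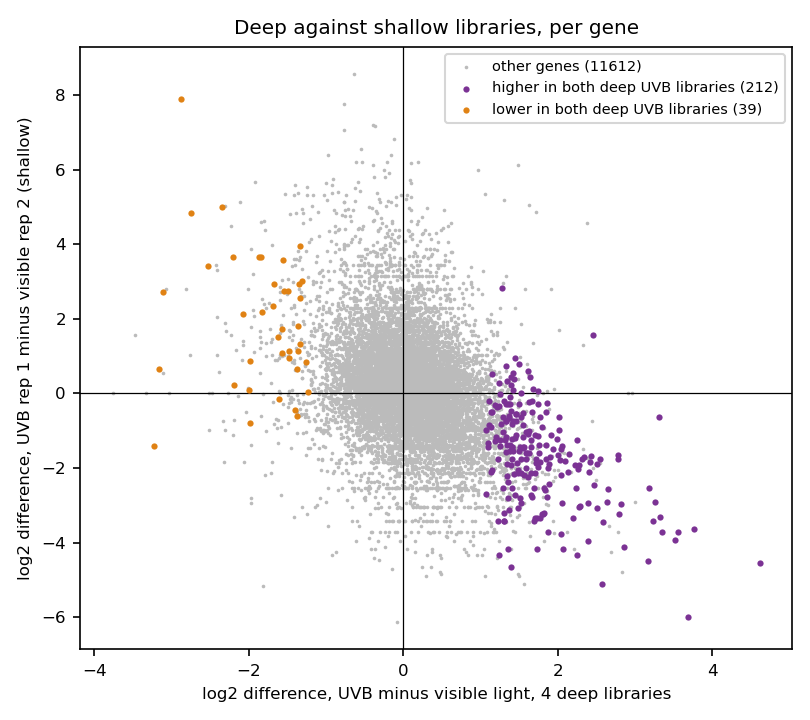
Log2 difference, UVB minus visible light, in the 4 deep libraries (x axis) and in the shallow pair, UVB replicate 1 minus visible light replicate 2 (y axis); each point is 1 of 11863 genes. Most of the 212 purple genes, chosen as higher in both deep UVB libraries, lie below 0 on the y axis, and most of the 39 orange genes above it.

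The same held from the other side. Considered here were 4388 genes with a mean of at least 10 CPM in the deep libraries and at least 50 reads over the shallow pair. Folds and directions were counted relative to the median of these genes (-0.03 in the deep libraries). In UVB replicate 1, 310 genes were at least 4-fold higher than in visible light replicate 2. In the deep libraries 92 of the 310 (29.7%) were higher with UVB, with a median of -0.34. Another 181 genes were at least 4-fold lower in UVB replicate 1, and 24 of them (13.3%) were lower with UVB in the deep libraries, with a median of 1.04. Across 5223 nuclear protein-coding genes with a mean of at least 30 CPM, the deep and the shallow difference had a Pearson r of -0.44 and a Spearman rho of -0.41. These points are genes that share the same 6 libraries and are not independent. With a single deep visible light library in the deep difference r was -0.34 (replicate 1) and -0.39 (replicate 3), and with a single deep UVB library -0.45 (replicate 2) and -0.39 (replicate 3).

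The level of the 212 and the 39 genes was then followed through the Falstaff libraries, as their median log2(CPM + 1) minus that of all genes. For the 212 genes it was -0.93, 0.81 and 0.86 in UVB replicates 1, 2 and 3, and -0.86, 0.62 and -0.51 in visible light replicates 1, 2 and 3. In both groups the shallow library lay on the side of the other group's deep libraries. The deep UVA library had -0.81, within the range of deep visible light, and the shallow UVA libraries -0.86 and -0.39. The day 0 libraries had -0.48, 0.33 and 0.21, with the lowest value in the shallow day 0 library. For the 39 genes the values were 1.07, -0.30 and -0.47 with UVB and 1.62, -0.75 and 1.30 under visible light. They were 1.5 in the deep UVA library, 0.92 and 1.27 in the shallow ones, and 0.82, -0.11 and 0.24 at day 0. Levels in the deep UVB and visible light libraries chose these genes and are given as a description.

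**Figure D5:**
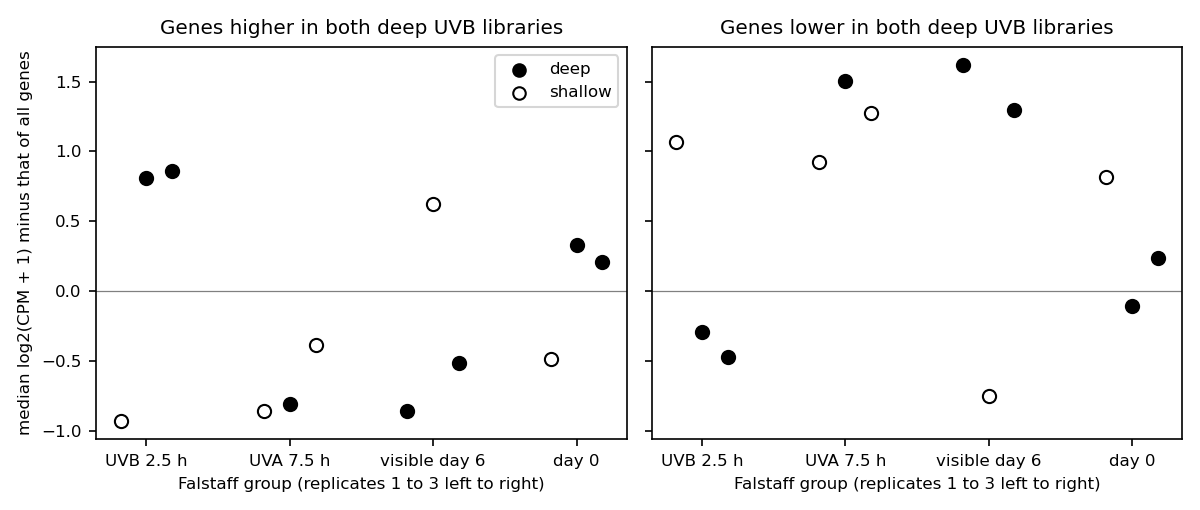
Median log2(CPM + 1) minus that of all genes, for the 212 genes higher (left) and the 39 genes lower (right) in both deep UVB libraries, in the 12 Falstaff libraries; filled points are deep and open points shallow libraries. The open points of UVB and visible light lie on the side of the other group's filled points.

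Correlations between whole libraries did not follow the groups. Across the 5223 genes, the Pearson correlation of log2(CPM + 1) was 0.948 between UVB replicates 2 and 3. The shallow visible light replicate 2 correlated at 0.712 and 0.724 with the deep UVB libraries and at 0.575 and 0.622 with the deep visible light libraries of its own group. The shallow UVB replicate 1 correlated at 0.451 and 0.478 with the deep UVB libraries and at 0.557 and 0.546 with the deep visible light libraries. Its highest correlation, 0.570, was with the other shallow library, visible light replicate 2. A closer match to the other group was not limited to shallow libraries. The deep visible light replicate 3 correlated at 0.875 and 0.884 with the deep UVB libraries and at 0.755 with the deep visible light replicate 1. These values are across genes, and depth and composition, which differ between the libraries, move with them; their part in the result was not tested.

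The authors' deposited table for these 6 libraries listed 3 of 28751 genes (0.0104%) at an adjusted p under 0.05, and 470 (1.63%) at an unadjusted one. LOC111882484 had 0 reads in all 3 UVB libraries and 1790, 0 and 6 reads in visible light replicates 1, 2 and 3, with an adjusted p of 2.68e-05 in the authors' deposited table. LOC111919686 had 0 reads with UVB and 628, 0 and 0 reads under visible light (adjusted p of 0.000136 in the authors' deposited table). Both genes were thus carried by visible light replicate 1, where they reached 56.7 and 19.9 CPM. With limma their adjusted p was 0.9999 over 6 libraries, and DESeq2 gave neither gene an adjusted p there. Over the deep libraries the DESeq2 adjusted p was 0.202 for LOC111882484 and 0.00042 for LOC111919686.

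The third gene, LOC111921236, had 0, 141 and 438 reads in UVB replicates 1, 2 and 3 and 0, 0 and 2 reads in visible light replicates 1, 2 and 3 (adjusted p of 0.0147 in the authors' deposited table). It was the 1 gene that DESeq2 called over the 6 libraries (adjusted p = 0.015), and its adjusted p was 0.391 to 1 in the other fits of 6 libraries. In CPM it had 0, 7.55 and 16.1 with UVB and 0, 0 and 0.0537 under visible light. Both deep UVB libraries were above both deep visible light libraries, and the shallow UVB library, with 0 reads, allows up to 2.96 CPM. Day 0 replicates 2 and 3 had 1.75 and 0.871 CPM, and no Falstaff UVA library had a read. Over the deep libraries DESeq2 gave an adjusted p of 4.38e-08 and limma one of 0.442, with a log2 difference of 3.56 (SE 0.44).

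Genes of the plastid genome carry the familiar symbols and mark the leaf's photosynthetic cells. In the deep libraries most of these genes were near 0 CPM, and the levels that could be compared came from the shallow library of each group. psbA, the gene of the D1 core subunit of photosystem II, had 82829, 14.5 and 2.13 CPM in UVB replicates 1, 2 and 3, and 1.58, 43447 and 15.7 CPM in visible light replicates 1, 2 and 3. In the shallow libraries it took 8.28% of reads with UVB (exact 95% interval 8.23% to 8.34%) and 4.34% under visible light (4.30% to 4.39%), intervals that cover counting error only. It made up 79.9% of plastid reads in the shallow UVB library and 61.4% in the shallow visible light library. The deep libraries of each group spread so far from the shallow ones that the log2 difference, 0.36, had an SE of 4.35 (limma adjusted p = 0.9999).

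rbcL, the large subunit of Rubisco, the enzyme that fixes carbon dioxide, had 110 CPM in the shallow UVB library and 71.1 CPM in the shallow visible light library (exact Poisson 95% intervals 91.0 to 133 CPM and 54.1 to 91.7 CPM). It had 0 reads in all 4 deep libraries. psaC, the subunit of photosystem I that holds iron-sulphur centres, had 2796 CPM in the shallow UVB library and 4006 CPM in the shallow visible light library. petB, a subunit of the cytochrome b6f complex, had 2464 CPM with UVB and 1588 CPM under visible light in the same libraries. Plastid genes thus lay on both sides between the 2 shallow libraries, and this is a comparison of those libraries, not of the conditions.

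By complex, 9 of the 10 photosystem II genes tested over 6 libraries had a positive difference, with a median of 0.27, beside 0.14 for all genes, and 0 were called. For photosystem I it was 4 of 5 (median 0.10), and for ATP synthase and cytochrome b6f 5 of 10 (median 0.04). The NDH complex, which cycles electrons around photosystem I, had 5 of 9 (median 0.00), and 0 genes were called in any of these lists. Only 2 photosystem II genes, 1 photosystem I gene, 1 of ATP synthase and cytochrome b6f and 0 of NDH passed the filter in the deep libraries. The signs thus rest largely on UVB replicate 1 against visible light replicate 2, some on few reads (psbJ 6 against 1, psbZ 4 against 2). The share of positive differences over all genes was not counted, so no conclusion is drawn from these counts. The photosystem II median lay between -1.80 and 1.61 when single libraries were left out, so that its sign depended on which library was kept. Of the 77 protein genes of the plastid, 59, 16 and 19 had a read in UVB replicates 1, 2 and 3, and 21, 58 and 23 in visible light replicates 1, 2 and 3.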

How the data were processed

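The authors deposited normalized signal per gene, 6 libraries to a table, and for each table per-gene log2 fold changes, their standard errors, test scores, p-values and adjusted p-values. The tools named per the submitters' processing notes are STAR and featureCounts 1.6.3. For genome build, annotation and strand, nothing is given in the sources used here. The deposited signal of each library was a whole multiple of a single step at a tolerance of 0.001 for 100% of values, so that whole reads per gene were recovered and scaled to CPM by the column sum. Of 31499 genes, 31045 matched RefSeq (Lsat_Salinas_v11) and 454 did not. That table gave biotype, plastid origin and gene order. The fold change in the authors' deposited table is visible light minus UVB.

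The test was limma 3.58.1 (R 4.3.3), with its trend option, on log2(CPM + 1), two-sided, on genes with a mean of at least 1 CPM, with Benjamini-Hochberg adjustment. The pseudocount understates changes of low genes. edgeR 4.0.16 and DESeq2 1.42.0 on recovered reads were alternatives. An exact permutation test of 3 against 3 cannot go below p = 0.1. Members and lists were chosen with earlier results of these data known. Named genes are protein-coding, with a mean of at least 10 CPM, no overlap between groups and the highest or lowest difference. Genes of the authors' deposited table and of DESeq2, where at most 5 were called, were added, as were psbA and rbcL. Of 25 lists fixed, 5 (plastid complexes) could be filled; those of flavonoid, light-signalling and repair genes could not. The correlation of same-numbered libraries' deviations from their group means was 0.08, -0.16 and 0.27 for replicates 1, 2 and 3. For unlike numbers it was -0.25 to 0.19. Each group mean includes a shallow library, so these values cannot decide whether the numbers pair the libraries. The main tests treated the libraries as unpaired.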

Additional observations from a re-analysis of the deposited data

Results flagged for a closer look

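For 2 of the named genes, the order of UVB and visible light libraries was opposite in the other variety, Luna bionda. By the labels there was no overlap in either variety. The authors' deposited table with the Luna bionda UVB 2.5 h libraries sets other libraries beside them. These are visible light replicates 2 and 3 and the shallow library labelled UVB 7.5 h replicate 1. That library had 30.1 CPM of LOC111914174, so this gene overlaps in that set. Both genes were named because their Falstaff libraries do not overlap. How many of all genes have opposite orders was not counted, and the difference between varieties was not tested. In Luna bionda the start of the number in the batch label separates the UVB 2.5 h from the visible light libraries. Light and this number therefore cannot be told apart there. LOC111877039 was higher with UVB in all 3 Falstaff libraries (log2 difference 3.11, and 2.18 to 4.28 without single libraries), whereas in Luna bionda it had 0.939, 0.910 and 0.338 CPM with UVB and 21.3, 37.9 and 2.36 CPM under visible light. Its level also spread widely within a group, with 4.46, 147 and 4.02 CPM in the Luna bionda libraries labelled day 0. LOC111914174 was lower with UVB in all 3 Falstaff libraries (log2 difference -2.62, and -3.46 to -1.38 without single libraries), whereas in Luna bionda it had 21.4, 43.7 and 84.6 CPM with UVB and 7.49, 9.80 and 9.09 CPM under visible light.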

How the results depend on the processing

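The counts of 0 limma calls held under every scaling, pseudocount, filter and weight tried and with the edgeR test, and over 6 libraries also with a depth term and with all 12 Falstaff libraries fitted. DESeq2 gave 1 call over 6 libraries and 269 over the deep ones. Leaving out single libraries gave 0 calls each time over 6 libraries and between 0 and 2979 over the deep ones. The replicate block gave 0 calls and 64 genes with an unadjusted p under 0.05, in place of 97. Over 6 libraries this count was 1980 with sample weights, 688 with the depth term and 45 to 630 without single libraries (630 without UVB replicate 1), with 0 calls each time. No paired analysis was possible in the deep libraries because the groups share only number 3. The share of genes higher in both deep UVB libraries that kept this direction in the shallow pair, 6.60%, was 12.02% at a mean of at least 1 CPM, 1.69% at 30 CPM, 0% of 12 genes at a 4-fold gap, 15.5% at a 1.5-fold gap and 3.13% with size factors, and 9.46% to 20.4% without single libraries. For lower genes, 17.9%, it was 23.5% to 42.4% without single libraries. These shares were chosen after seeing the data. Named genes kept direction and side of the threshold in 129 of the alternative fits and passed it, in the same direction, in 11. A fit without an adjusted p, such as DESeq2 for LOC111914174 over 6 libraries, was counted as not passing. Depth limits the shallow libraries to levels above about 3 CPM. The cause of these changes was not tested.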
